A study of Mus musculus with 16 samples.

Results

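The crystallins described here are 10 genes, taken by their symbols, with earlier results of these data known when the list was drawn up: Cryaa, Cryab, Cryba1, Cryba2, Cryba4, Crybb1, Crybb2, Crybb3, Crygs and Crygn. All 10 were found among the 25905 genes of the deposited table. The table summarises RNA sequencing of the right retina of 16 male C57BL/6 wild type mice, labelled as 10 weeks old, of which 8 were kept in space flight on the International Space Station and 8 were ground control mice in the same housing hardware. The authors give 10 weeks as the age of the mice that were flown. These mice were dissected after weeks aboard and after their return to Earth, so they were older by then. Their tissue had also passed through landing and transport. Each library came from the retina of 1 eye, a bulk tissue in which fewer cells of a type and less RNA per cell cannot be told apart.

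The values used are the authors' mean of the normalized counts over all libraries, 1 value per gene. The columns of counts for single libraries are named with codes that match no mouse's label, so levels by mouse or by group, their SD and a comparison of spaceflight with ground control are not analysed here. For the same reason the mean values below have no error, and whether neighbours in the order of levels differ beyond the spread between mice was not tested.

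Crystallins are the soluble proteins that fill the fibre cells of the lens and give it its refractive power. The α-crystallins are small heat shock proteins, chaperones that hold unfolded proteins in solution. The β- and γ-crystallins form a separate family with a shared fold of Greek key motifs. Crystallin transcripts are also known from the retina, in neurons, Müller glia and pigment epithelium, where the α-crystallins are studied as stress proteins. A retina dissected from an eye lies next to the lens, so both sources are possible in such a library.

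Promoters of 4 members that span the range of levels are shown so that the start regions of high and low members can be read side by side. They are RefSeq sequences of the mouse assembly GRCm38.p6, a later build than the one the authors mapped to, and each covers 250 bases before the annotated start and 50 after it. Capitals mark only the exact TATA box letters TATAAA, on either strand. The first is that of Cryaa, at chr17:31677681-31677980 on the plus strand, followed by Crygs at chr16:22811361-22811660 on the minus strand, Crybb1 at chr5:112255570-112255869 on the plus strand and Crybb3 at chr5:113081535-113081834 on the minus strand.
Cryaa: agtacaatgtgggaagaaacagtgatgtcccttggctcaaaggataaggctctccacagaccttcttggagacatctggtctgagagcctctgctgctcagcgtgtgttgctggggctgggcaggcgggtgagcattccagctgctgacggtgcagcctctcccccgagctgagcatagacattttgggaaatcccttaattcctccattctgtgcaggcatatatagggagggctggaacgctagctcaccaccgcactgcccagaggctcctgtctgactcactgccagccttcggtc
Crygs: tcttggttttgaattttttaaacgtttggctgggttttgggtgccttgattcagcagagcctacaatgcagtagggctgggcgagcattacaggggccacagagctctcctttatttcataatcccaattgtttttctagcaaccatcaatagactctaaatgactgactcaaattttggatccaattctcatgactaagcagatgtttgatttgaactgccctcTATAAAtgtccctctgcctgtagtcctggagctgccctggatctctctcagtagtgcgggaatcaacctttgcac
Crybb1: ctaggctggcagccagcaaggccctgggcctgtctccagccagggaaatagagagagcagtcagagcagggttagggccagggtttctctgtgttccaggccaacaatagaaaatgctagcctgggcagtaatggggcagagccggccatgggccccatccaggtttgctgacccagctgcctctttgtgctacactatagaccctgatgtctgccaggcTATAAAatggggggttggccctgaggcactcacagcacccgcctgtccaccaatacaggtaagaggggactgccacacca
Crybb3: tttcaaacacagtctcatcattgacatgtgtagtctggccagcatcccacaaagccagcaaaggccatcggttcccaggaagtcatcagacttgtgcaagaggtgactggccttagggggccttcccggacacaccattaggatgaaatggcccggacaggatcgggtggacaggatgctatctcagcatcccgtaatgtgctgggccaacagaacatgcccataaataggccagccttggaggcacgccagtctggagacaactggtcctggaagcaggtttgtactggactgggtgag

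A promoter was found for 9 of the 10 members, without Cryab. The exact letters TATAAA were present in 4 of them, and 13.6% of all 32851 promoters of the same length hold these letters. The match began at position -23 from the annotated start in Cryba1, -25 in Crygs, -30 in Crybb1 and -3 in Cryba2. Cryaa, the member with the highest level, had no exact match in the window. Its printed sequence holds the similar letters TATATA, which were not searched for, so Cryaa cannot be read as lacking a TATA box. The same holds for the other members without an exact match, Crybb3 among those printed. The promoter of Crygn, not printed, holds TATATA as well. The letters TGANTCA of an AP-1 site, searched on both strands, were present in 4 of the 9 promoters (Cryaa, Cryba2, Crygs and Crygn) against 7.81% of all promoters, and the E-box CANNTG was present in 8 of the 9 against 72.3%. The letters GAANNTTC, a pair of heat shock element units, were present in 0 of the 9 and in 7.86% of all promoters. A match describes these letters in this window and does not show a bound site.

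The α-crystallins were the members with the highest levels. The authors' mean normalized count was 898 for Cryaa, which encodes αA-crystallin, a chaperone made mainly in the lens. It was 748 for Cryab, which encodes αB-crystallin, a chaperone of lens, muscle, heart and glia. Among the 19667 genes with a mean above 0, Cryaa was higher than 91.9% and Cryab higher than 90.0%. Per kilobase of the longest reference transcript the levels were 709 and 670. Together the α-crystallins held 53.0% of the level per kilobase summed over the 10 members, and 58.1% of the summed normalized counts.

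The acidic β-crystallins were lower. Cryba1, which encodes βA3/A1-crystallin from 1 transcript with 2 start codons, had a mean normalized count of 288, or 209 per kilobase. Cryba2, the gene of βA2-crystallin, was at 112 normalized counts and 121 per kilobase, and Cryba4, the gene of βA4-crystallin, was at 103 normalized counts and 128 per kilobase. These 3 genes held 17.6% of the summed level per kilobase.

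The basic β-crystallins spanned the widest range of the classes, but the low end of this range was set by Crybb3 alone, a gene with 2 accessions. Crybb2 encodes βB2-crystallin, the most abundant β-crystallin of the adult lens, and was the third of the members, with a mean normalized count of 441 and 487 per kilobase. Crybb1, the gene of βB1-crystallin, was at 81.2 normalized counts and 92.0 per kilobase. Crybb3, the gene of βB3-crystallin, was at 0.175 normalized counts, which comes to 2.80 normalized counts summed over all 16 libraries. This sum is above 0 but rests on very few reads. For scale, a count of 0 in all libraries would still allow 3 counts in total, a mean of 0.188 per library. That limit is for a gene without counts and does not bound the level of Crybb3. On the assembly GRCm38, Crybb2 and Crybb3 are direct neighbours among protein coding genes, as are Cryba4 and Crybb1.

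Of the γ-crystallins among the members, Crygs encodes γS-crystallin, the γ-crystallin of the outer, late-formed lens fibres, and was at 161 normalized counts and 184 per kilobase. Crygn encodes γN-crystallin, which shares features of the β and γ branches. Its mean normalized count was 1.29, or 20.7 summed over all libraries, and its level per kilobase was 1.68. Per kilobase, Crygs was 109 times Crygn with the longest transcript of each and 31.5 times with the shortest.

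**Figure D1:**
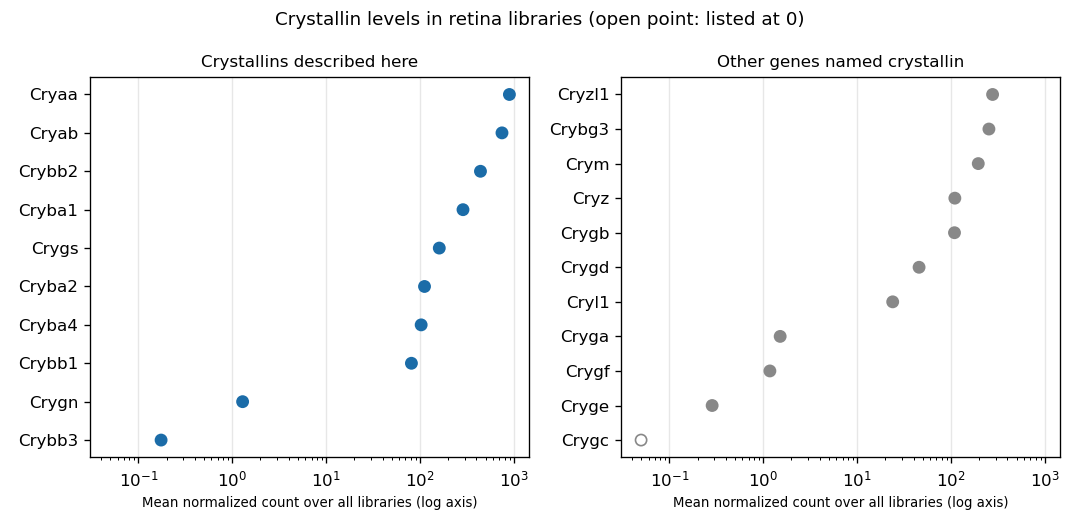
Authors' mean normalized count over all libraries (log axis) for the 10 crystallins (left) and for 11 other genes named crystallin (right), 1 point per gene. Cryaa at 898 and Cryab at 748 lead, 8 of the 10 members lie at 81.2 or above, and Crygn at 1.29 and Crybb3 at 0.175 stand far below; Crygc, drawn as an open point at the left edge, is listed at 0.

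In order of level per kilobase the members ran Cryaa, Cryab, Crybb2, Cryba1, Crygs, Cryba4, Cryba2, Crybb1, Crygn and Crybb3. The 8 members from Cryaa to Crybb1 were at a mean normalized count of 10 or more, and Crygn and Crybb3 were not. Of all genes, 47.8% were at that level. Summed over the 10 members the mean normalized counts came to 2833, which is 0.0405% of the 6995811 normalized counts over all genes. The order of Cryaa and Cryab turned when the length of the transcript that carries the counted accession was used, with 709 per kilobase for Cryaa and 884 for Cryab. Cryba2 and Cryba4 changed places as well, at 155 and 128 per kilobase. With the shortest reference transcript, Cryaa was at 1832 per kilobase and Cryab at 1279.

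**Figure D2:**
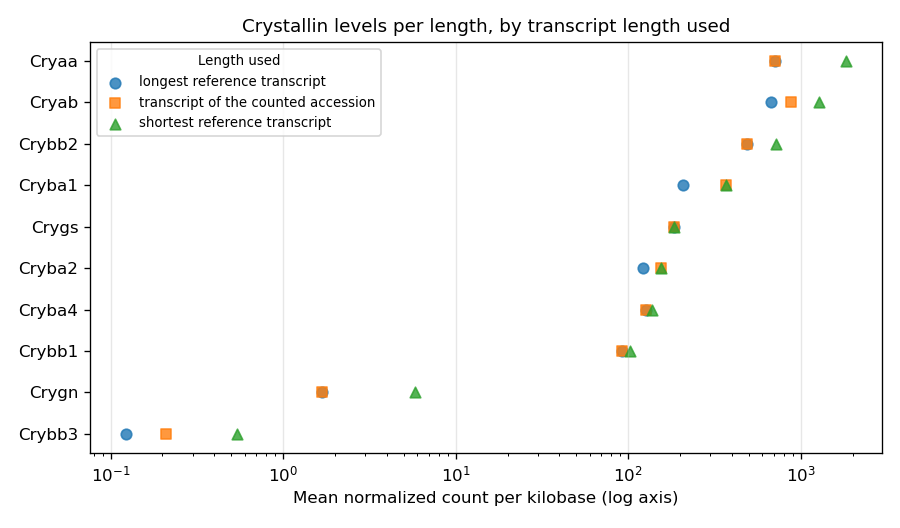
Authors' mean normalized count per kilobase (log axis) of the 10 crystallins, with circles for the longest reference transcript, squares for the transcript of the counted accession and triangles for the shortest. Crygs, with 1 reference transcript length, has the same value of 184 under each, while Cryaa ranges from 709 to 1832, and Crygn and Crybb3 are lowest under each length.

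The rows of the deposited count table are transcript accessions, 31616 in all for 25905 symbols, and 9 of the 10 members have 1 accession. Crybb3 has 2. Their reference transcripts hold 675 and 754 windows of 75 bases, the read length, of which 25 and 104 do not occur in the other. Over the whole table, genes with 1 accession had a median mean normalized count of 12.9 (n = 22086), and genes with 2 had a median of 0.652 (n = 2704). A level under 1 was found for 35.6% of the former and 53.9% of the latter. How the counting treated reads that fall in both transcripts of Crybb3, and its part in the level of 0.175, was not tested.

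No window of 75 bases was shared with another gene's reference transcript, on either strand, in Cryab, Cryba1, Cryba2, Cryba4, Crybb1, Crybb2, Crybb3, Crygs and Crygn. In Cryaa 50 of 1192 windows, 4.19%, were shared with AC090881.2, an annotated gene on the opposite strand that overlaps it. Overlaps with a gene on the opposite strand were also annotated for Cryab (Hspb2), Cryba1 (Nufip2) and Crybb2 (Gm43247). The kit makes stranded libraries, but the strand setting of the counting is not given in the sources used here, so reads of these 4 members and of their antisense partners may not have been separated. Hspb2, a small heat shock gene beside Cryab, was at 0.180 normalized counts, or 2.87 summed over all libraries. It has 2 accessions, so this value does not bound its reads.

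The remaining γ-crystallin genes, Cryga to Crygf, lie outside the members and encode lens fibre proteins. Crygb was at 109 normalized counts and 172 per kilobase, close to the 184 per kilobase of Crygs, and Crygd was at 45.8 normalized counts and 72.6 per kilobase. Cryga was at 1.52, Crygf at 1.18 and Cryge at 0.286 normalized counts, while Crygc, with 2 accessions, was listed at 0. Of the windows of 75 bases, 42.0% in Cryge, 26.2% in Crygb, 23.7% in Crygd and 21.3% in Crygf were shared with another gene, most often another γ-crystallin (in that order Crygd, Crygc, Cryge and Cryge). In Cryga 50.1% were shared, all of them with Gm28845, which is no γ-crystallin by its symbol. For both reasons the levels of these genes are less certain than those of the members that have 1 accession and share no window with another gene. Genes that carry the crystallin name in other families were also present. Crym, a thyroid hormone binding protein, was at 72.9 per kilobase, and the zeta-crystallin quinone reductase genes Cryz and Cryzl1 were at 31.7 and 141 per kilobase. Crybg3 was at 24.3 and Cryl1 at 16.0 per kilobase. With the shortest transcripts Crym was at 141, Cryz at 233, Cryzl1 at 542, Crybg3 at 468 and Cryl1 at 44.9, so these levels depend on the length used. In Crybg3 16.1% of the windows were shared with Riox2, and in Cryz 7.32% with Tyw3.

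Lens markers were present, with a median of 11.6 normalized counts against 136 for the 10 crystallins. Of 12 genes on the lens list, 12 were in the table. Of these, 6 were at a mean normalized count of 10 or more, near the share of 47.8% over all genes. On this list 0 were listed at 0, and of all 25905 genes 19667 were above 0. Levels ran from 0.347 (Dnase2b) to 98.7 (Bfsp1). The list summed to 330 normalized counts, 0.00471% of all. Bfsp1 and Bfsp2, the beaded filament proteins of lens fibres, were at 41.6 and 32.1 per kilobase. Mip, the water channel of the lens fibre membrane, was at 22.9 per kilobase, Grifin, a lens galectin, at 23.4 and Lgsn, lengsin, at 20.1. Gja3, a lens connexin, was at 1.15 per kilobase. Cryaa was 31.0 times Mip per kilobase of the longest transcript and 80.0 times with the shortest, against 18.3 times per read. The part of lens tissue in the crystallin levels was not tested.

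Most markers of the retina itself, the labelled tissue, lay above the lens markers. Of the 5 rod markers, Gnat1, the rod transducin α subunit, was at 65623 per kilobase, and Pde6a and Pde6b, the catalytic subunits of the rod phosphodiesterase, were at 5086 and 3272. Nrl, a rod transcription factor with 2 accessions, was at 17.9 per kilobase of the longest transcript, under the lens markers Bfsp1, Bfsp2 and Mip. With the shortest transcripts Nrl was at 122, above these markers at 45.7, 69.1 and 22.9, so this order depends on the length used. The 5 cone markers ranged from 537 to 2800 normalized counts. Müller glia markers summed to 37093 normalized counts, led by Glul, glutamine synthetase, at 6252 per kilobase, and Cryab stood at 0.107 of Glul per kilobase of the longest transcript and at 0.0278 with the shortest. Rlbp1, also on that list and with 2 accessions, was at 1.39 normalized counts. Ganglion cell markers ranged from 5.53 (Rbpms, with 3 accessions) to 2999 (Nefl). Pigment epithelium markers ranged from 2.72 (Best1) to 540 (Ttr) normalized counts and astrocyte markers from 3.44 to 80.5. Muscle markers of ciliary body and iris ranged from 0 (Myh11, with 2 accessions) to 78.6, and cornea markers from 0 (Kera) to 11.9 (Krt12).

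**Figure D3:**
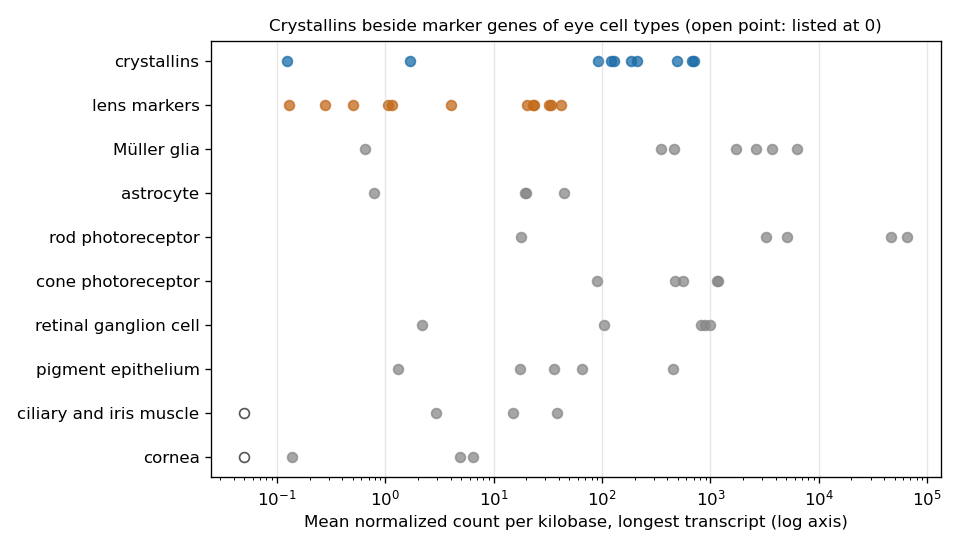
Authors' mean normalized count per kilobase of the longest transcript (log axis), 1 point per gene, for the 10 crystallins (blue), lens markers (orange) and marker genes of other eye cell types (grey). Cryaa at 709 and Cryab at 670 lie far to the right of the lens markers, which end at 41.6 for Bfsp1, and to the left of the leading rod markers; open points at the left edge are genes listed at 0.

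Among 8 genes with an Hspb symbol, the name given to small heat shock genes, Hspb6 was the highest at 954 per kilobase, above both Cryaa and Cryab. These genes were listed by symbol. Whether each of them, Hspb11 among them, belongs to the family of the α-crystallins was not tested. Hspb1, the stress-induced heat shock protein HSP25 of the mouse, was at 63.9 per kilobase, and Cryab was 10.5 times Hspb1, or 19.4 times with the shortest transcripts. Hspb11 was at 64.1, Hspb8 at 17.7, Hspb3 at 5.62 and Hspb7 at 0.283 per kilobase, and Hspb9 was listed at 0. Of 13 genes for factors known to control crystallin genes in lens development, 10 were at a mean normalized count of 10 or more. The share of all genes at that level was 47.8%. Pax6, Six3 and Prox1, which also act in retinal neurons, were at 472, 438 and 357 per kilobase. Sox2 was at 127, Hsf1 at 117, Hsf2 at 42.1, Mafg at 37.4 and Maf at 28.1 per kilobase. Hsf4 and Foxe3 are on the lens list as well. The lens factor Hsf4 was at 33.5 per kilobase, while Foxe3, Pitx3 and Sox1, which are used in lens formation, were at 1.07, 0.503 and 0.351.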

How the data were processed

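Retinal RNA of 16 mice, 8 per group, was sequenced as single-end reads. Trimming was done by the authors with Trimmomatic, mapping with TopHat2 against an NCBI build of the mouse genome earlier than GRCm38, counting with HTSeq and fitting with DESeq2 1.22.2. The signal value used here is the authors' mean over all libraries of counts divided by size factors. The other columns of that table hold the authors' own comparison of the groups (log2 fold-change, its standard error, statistic and p-values) and were not used. All 32 count columns, 16 in each of 2 tables, have names that match no sample's labels and were not used. Depth per library is therefore not analysed here, and the planned comparison of the groups was not run. The limit of 3 counts is for a gene without counts and covers counting error only.

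Levels per kilobase used GENCODE M21 transcripts joined by symbol (80.4% of genes), and counted accessions were joined without their version. Windows of 75 bases were compared with all transcripts on both strands. Window and motif searches were tested on simulated data. The members and lists were chosen with earlier results of these data known. Named are all members and all genes of the lists of crystallin-named genes, small heat shock genes, crystallin regulators and markers that a result touches; values of some listed genes are not reported here. AC090881.2, Nufip2, Gm43247, Gm28845, Riox2 and Tyw3 were named after their overlap or shared windows were seen. Cryzl2, Crybg1 and Crybg2 were not found by symbol. Software was Python 3.11.15, numpy 2.4.6, pandas 2.3.3 and matplotlib 3.10.9.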

Additional observations from a re-analysis of the deposited data

How the results depend on the processing

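The share of the summed crystallin level held by the α-crystallins, 58.1% per read, was 53.0% per kilobase of the longest transcript, 65.0% with the shortest and 52.9% with the counted accession, the last added after seeing the data. The share of the 6 β-crystallins, 36.2% per read, was 39.9%, 31.0% and 40.9% in the same order, so the α-crystallins led under each. The median crystallin was higher than 64.5% of genes above 0, and among genes at 10 or more the median of the 8 crystallins at that level was 55.5%. In the 250 bases before the start, matches were left in 3 promoters for TATAAA, 3 for the AP-1 letters and 8 for the E-box, against 12.4%, 6.75% and 66.2% of all promoters. The alternatives for a comparison of the groups were not run. No paired analysis was possible because the count columns carry no replicate number. Without values per library, spread between mice and depth limit every order given here.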
